A study of Mus musculus with 24 samples.

Results

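The data described here are the levels of 41 interferon-stimulated genes in myeloid cells sorted from mouse tumors. They were taken from a fixed list of symbols (Isg15, the Ifit and Oas families, Irf7, Stat2, Irf9, Mx1, Rsad2 and others), and all 41 were found among the 54446 gene identifiers of each count file. The list was chosen with earlier results of these data known, which limits the comparison of its counts with those of all genes. A level filter of at least 10 counts in at least 3 libraries was passed by all 41 in the Inputs (of 16090 genes that passed) and in the immunoprecipitated libraries (of 16038). CD11b+ myeloid cells came from MC38 tumors, a mouse colon carcinoma line grown under the skin of C57BL/6J mice. WT mice carried floxed Ythdf2 alleles without Cre (Ythdf2 fl/fl), and cKO mice carried the same alleles with Cre expressed from the myeloid Lyz2 locus (Lyz-Cre;Ythdf2 fl/fl). Tumors were left unirradiated (Ctrl) or received 20 Gy once, with cells taken 3 days later (IR). Each genotype and treatment had 3 Input libraries of polyadenylated RNA and 3 m6A IP libraries, made from RNA fragments captured by an antibody against N6-methyladenosine. In the study's methods a replicate is described, for floxed mice after irradiation, as a pool of 5 mice, and it is called technical in one place and biological in another, so that SDs and p-values measure the spread between these libraries. Mice were 8 to 10 weeks old.

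Type I interferons are cytokines released when a cell senses foreign or misplaced nucleic acid. They bind the receptor IFNAR1 and IFNAR2, whose kinases JAK1 and TYK2 activate STAT proteins. STAT2 and IRF9 are part of the complex ISGF3, which binds an element called ISRE in the promoters of interferon-stimulated genes. The proteins of these genes detect viral RNA, block translation, degrade RNA, tag other proteins with ISG15 or restrain the pathway. YTHDF2, the protein targeted in the cKO, recognizes m6A in mRNA and speeds the degradation of the transcripts it binds.

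Many of the genes carry a promoter element that was not used to choose them. RefSeq promoters (250 bases before to 50 bases after the transcription start, GRCm38.p6) were on hand for 30 of the 41 genes. The 11 others were Usp18, Oas2, Dhx58, Zbp1, Mx1, Mx2, Parp9, Parp14, Ifi204, Rtp4 and Ifi27l2a. An ISRE-type motif, spelled GAAA, any 2 bases and GAAA again, searched on both strands and allowed to overlap itself, was found in 15 of the 30 genes (50%), compared with 3.99% of the 27025 genes of the same table. With only the 250 bases before the start searched, 12 genes held it, compared with 3.46% of all genes. The windows below lie before the start, are written 5′ to 3′ on the strand of the gene, and carry the motif in capitals (TTTC, 2 bases and TTTC is the same motif on the other strand). They are shown because they differ in orientation and in distance to the start. Being higher in cKO Ctrl than in WT Ctrl held for 40 of the 41 genes, with and without the motif, so it does not set these apart.
Isg15: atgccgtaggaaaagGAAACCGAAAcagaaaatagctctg
Ifit1: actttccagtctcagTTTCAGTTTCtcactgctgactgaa
Ifit3: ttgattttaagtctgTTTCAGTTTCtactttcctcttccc
Oas1a: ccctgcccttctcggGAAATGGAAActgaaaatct
Oas3: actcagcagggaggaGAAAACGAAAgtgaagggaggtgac
Stat2: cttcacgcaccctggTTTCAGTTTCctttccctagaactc
Rsad2: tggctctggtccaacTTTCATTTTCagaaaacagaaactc
Bst2: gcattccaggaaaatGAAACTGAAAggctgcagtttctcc
Ifi203: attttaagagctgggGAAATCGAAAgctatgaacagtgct
The Isg15 window lies at chr4:156200866-156200905 (minus strand) and is the middle one of 3 overlapping motifs, with its first base 72 bases before the start. The Ifit1 window (chr19:34640789-34640828, plus strand) and the Ifit3 window (chr19:34583392-34583431, plus strand) share the motif letters TTTCAGTTTC, 85 and 122 bases before the start. Their orientation is opposite to that of the Isg15 motif, from which they also differ in the 2 free bases. Ifit3b carries the Ifit3 window letter for letter at chr19:34607788-34607827, 154 bases before its start. The window of Oas1a (chr5:120907526-120907560, minus strand) is 20 bases from the start and that of Oas3 (chr5:120777710-120777749, minus strand) 75 bases. The motif of Stat2 (chr10:128270261-128270300, plus strand) lies 222 bases, that of Rsad2 (chr12:26456548-26456587, minus strand) 120 bases and that of Bst2 (chr8:71537572-71537611, minus strand) 124 bases before the start. Ifi203 has it 35 bases before 1 of its 2 annotated starts (chr1:173942503-173942542, minus strand). No match was found in the promoters of Herc6, Ifit2, Oasl1, Oasl2, Irf9, Irf7, Cmpk2, Samd9l, Dtx3l, Ifi209, Sp100, Phf11d, Ifi44, Ifi35 and Xaf1, which says only that these letters were absent from these windows. Allowing 1 mismatch gave 28 of 30 genes (93.3%), compared with 38.9% of all genes.

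The libraries held 65.2M to 86.4M gene counts each, where M stands for 1000000. Ythdf2 counts were higher in the Inputs labelled cKO (174 to 231 CPM) than in the WT Inputs (95.6 to 107 CPM), where CPM is counts per 1000000 of the scaled library total. Counts over the whole gene do not show whether the floxed part was deleted. Lyz2, which carries the Cre, was at 20060 to 21460 CPM in the WT Inputs and 296 to 414 CPM in the cKO Inputs. In the unirradiated IP libraries Lyz2 had the same order (16820 to 17690 CPM in WT, 93.3 to 98.3 CPM in cKO). In the irradiated IP libraries the order was opposite to the labels, with 97.3 to 100.1 CPM in those labelled WT IR and 20980 to 21220 CPM in those labelled cKO IR. Values of the irradiated IP libraries are therefore given by label only, and counts of IP results are also given without them. None of the 7 myeloid markers was at 0 in any group, and markers of T cells, NK cells, B cells and fibroblasts summed to at most 2.81, 0.239, 1.15 and 0.575 CPM in any Input.

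In the absence of irradiation, the interferon-stimulated genes were higher in cKO than in WT myeloid cells. Of the 41 genes, 40 were higher and 0 lower in cKO Ctrl than in WT Ctrl Inputs (edgeR quasi-likelihood test, Benjamini-Hochberg adjusted p under 0.05), whereas 8.05% of all genes tested were higher and 7.61% lower. With an unadjusted p under 0.05, and with DESeq2, 0 were lower as well. The median log2 difference of the 41 genes was 0.86, with a range of 0.15 to 1.89, compared with a median of -0.00 over all genes tested. At least a 2-fold difference was reached by 17 of the called genes, compared with 72 genes called higher at that size among all 16090 tested. For 40 genes, each of the 3 cKO Ctrl libraries was above each of the 3 WT Ctrl libraries, which held for 18.3% of all genes. In bulk samples such as these, a change in the share of expressing cells and a change in RNA per cell cannot be told apart.

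**Figure D1:**
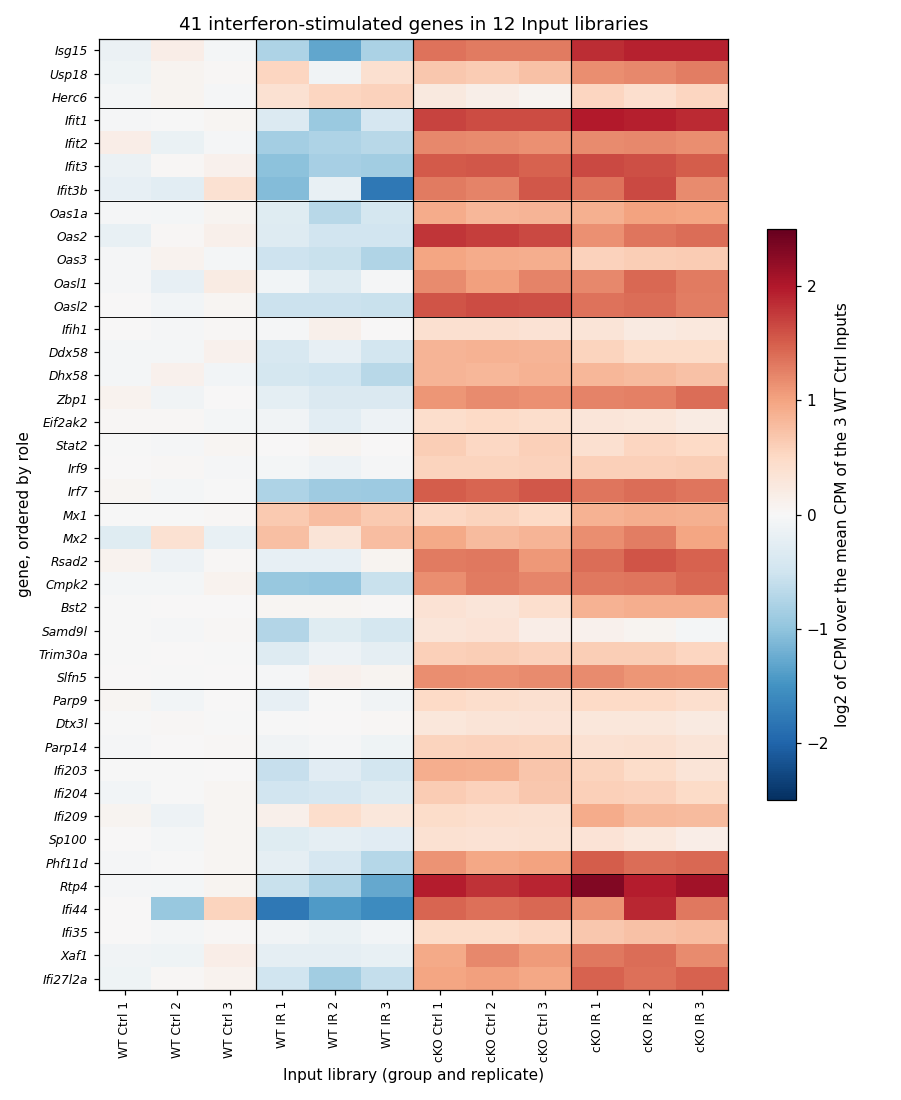
Level of each of the 41 genes (rows, ordered by role, lines between role groups) in each of the 12 Input libraries (columns), as log2 of CPM over the mean of the WT Ctrl Inputs. The cKO columns are red (higher) in most rows, and the 3 WT IR columns are blue (lower) in the rows of Ifit1, Ifit2, Ifit3 and Irf7.

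Of the 3 genes of the ISG15 system, 2 were higher in cKO Ctrl. Isg15 encodes the ubiquitin-like protein that is conjugated to other proteins after interferon exposure, and lies at chr4:156199424-156200818 (minus strand, 2 exons). Its Input level was 3.33, 4.18 and 3.60 CPM in WT Ctrl, at 2.17, 1.5 and 2.14 in WT IR, 9.46, 9.11 and 9.07 in cKO Ctrl and 13.4, 14.0 and 14.1 in cKO IR. No 2 groups overlapped. Isg15 was 2.48-fold higher in cKO Ctrl than in WT Ctrl (1.31 on the log2 scale, SE 0.11, adjusted p 2.2e-08) and 7.13-fold higher in the irradiated cKO group relative to irradiated WT (2.84, SE 0.12, adjusted p 2.3e-13). Usp18 encodes the protease that removes ISG15 and also blocks signalling at the IFNAR2 receptor. It was at 15, 17 and 16.5 CPM in WT Ctrl, at 23.5, 15.2 and 21.4 in WT IR, 25.8, 25 and 26.7 in cKO Ctrl and 36.3, 37.4 and 39.4 in cKO IR. The 3 WT IR libraries were spread widely, and replicate 2 overlapped WT Ctrl, whereas both cKO groups were above all WT libraries. Usp18 was higher by 0.68 (SE 0.10, adjusted p 7.0e-05) in cKO Ctrl. Herc6, the main ISG15 ligase of mouse, was the exception among the 41 genes. It was at 11.0, 12 and 11.2 CPM in WT Ctrl and 13.5, 12.6 and 12 in cKO Ctrl, with 14.9, 16.6 and 17.1 in WT IR and 16.7, 15.3 and 16.6 in cKO IR. The genotypes overlapped in both treatments, and the log2 difference was 0.15 (95% interval 0.01 to 0.29, adjusted p 0.19) in Ctrl and 0.00 (-0.14 to 0.14) in IR.

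The 4 Ifit genes, a cluster on chromosome 19 whose proteins bind the 5′ ends of foreign RNA and stall translation, were all higher in cKO Ctrl, with a median log2 difference of 1.44. Ifit1 (chr19:34640871-34650009, plus strand) stood at 6.99, 7.11 and 7.44 CPM in unirradiated WT and at 5.65, 3.79 and 5.37 CPM in irradiated WT. In cKO it was at 23.1, 22.3 and 22.3 CPM without and 28.2, 27.6 and 26.1 with irradiation. All 4 groups were separate, and Ifit1 was 3.15-fold higher in cKO Ctrl than in WT Ctrl (1.65, SE 0.09, adjusted p 8.5e-11). Ifit3 (chr19:34583531-34588731, plus strand) was at 3.49, 3.95 and 4.16 CPM in WT Ctrl, at 1.90, 2.17 and 2.12 in WT IR, 11.2, 11.3 and 10.7 in cKO Ctrl and 12.1, 11.8 and 11.0 in cKO IR. The WT groups were separate from each other and from the cKO groups, and the cKO groups overlapped. Ifit3 was higher by 1.51 in cKO Ctrl (SE 0.09, adjusted p 2.1e-10). Ifit2 (1.18) and the near-identical copy Ifit3b (1.36, SE 0.26) were higher as well. Reads shared by Ifit3 and Ifit3b may have been split between them or lost, so their separate levels are uncertain.

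The OAS enzymes make 2′-5′ linked oligoadenylates that activate RNase L, and the OASL proteins are their relatives. All 5 genes, which lie in 2 clusters on chromosome 5, were higher in cKO Ctrl, by 0.87 to 1.72. Oasl2 (chr5:114896936-114912234, plus strand) was at 17.2, 16.1 and 17.7 CPM in WT Ctrl, at 11.7, 11.8 and 11.6 in WT IR, 50.4, 52.3 and 51.9 in cKO Ctrl and 43.4, 44.5 and 41 in cKO IR, with no overlap between any of the groups. It was 3.04-fold higher in cKO Ctrl (1.60, SE 0.05, adjusted p 1.3e-14). Oas3 (chr5:120753098-120777661, minus strand) was at 16.3, 17.7 and 16.2 CPM in unirradiated WT and 11.8, 11.3 and 9.97 CPM in irradiated WT. In cKO it was at 33.4, 31.8 and 31.4 CPM in Ctrl and 25.1, 25.5 and 25.8 in IR. The order of the groups was the same as for Oasl2, with a difference of 0.94 in Ctrl (SE 0.06, adjusted p 9.0e-10). Oas2 differed most within the family, by 1.72 (SE 0.11, adjusted p 4.8e-10), from a WT Ctrl mean of 2.63 ± 0.288 CPM to 8.69 ± 0.427 CPM in cKO Ctrl (SD, n = 3 each).

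**Figure D2:**
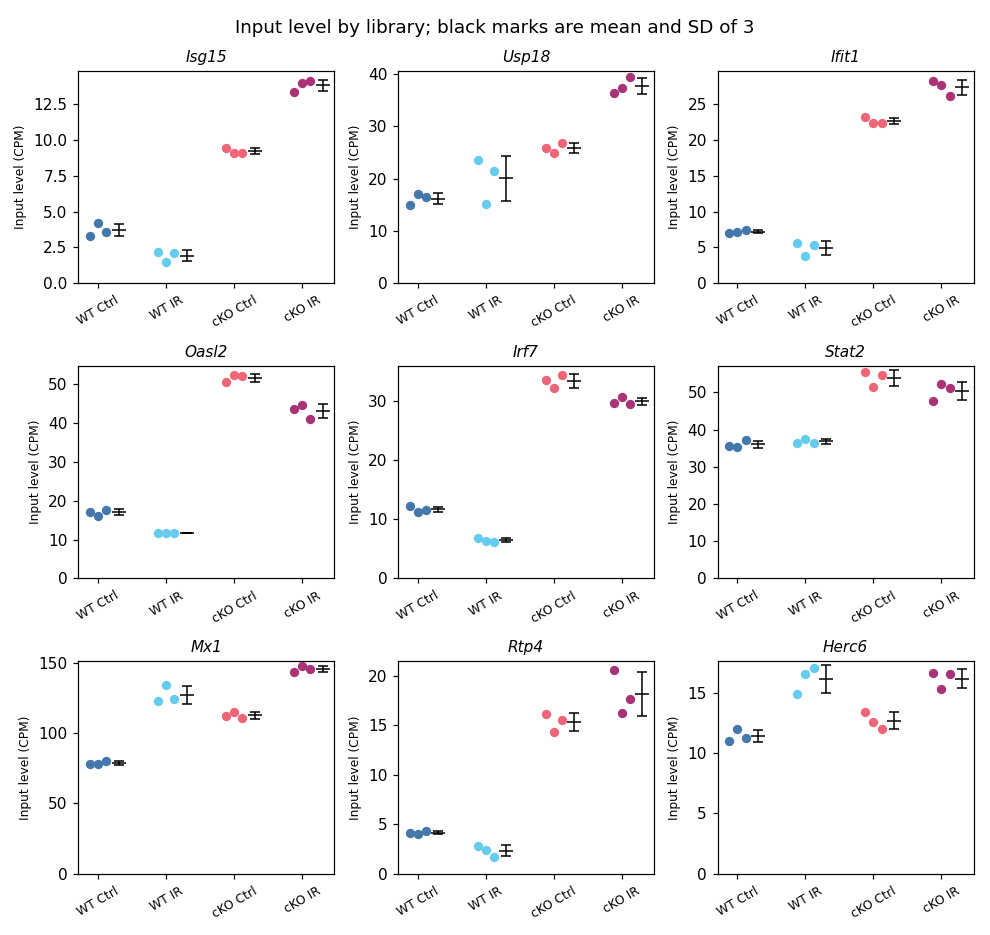
Input level in CPM (vertical axis, from 0) of 9 genes in the 3 libraries of each group (colored points), with the mean and SD of the 3 libraries in black. Isg15, Ifit1, Oasl2, Irf7 and Rtp4 are lowest in WT IR and highest in the cKO groups, Mx1 is higher in IR than in Ctrl in both genotypes, and Herc6 follows treatment rather than genotype.

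The sensors of foreign nucleic acid were higher in cKO Ctrl in 5 of 5 cases, with a median of 0.85. Zbp1, which senses Z-form nucleic acid and can start necroptosis, was at 11.2, 9.89 and 10.6 CPM in WT Ctrl, at 8.91, 8.27 and 8.17 in WT IR, 22.7, 23.9 and 23.3 in cKO Ctrl and 24.9, 25.3 and 27.7 in cKO IR. The groups did not overlap, and the difference in Ctrl was 1.14 (SE 0.07, adjusted p 1.7e-10). Ifih1, which encodes the long double-stranded RNA sensor MDA5, differed less. It was at 32.0, 31.4 and 32.7 CPM in WT Ctrl, at 31.3, 35.0 and 32.4 in WT IR, 42.2, 42.4 and 41.2 in cKO Ctrl and 39.8, 37.2 and 38.5 in cKO IR. The WT groups overlapped, and both were below the cKO groups, with a difference of 0.39 in Ctrl (SE 0.05, adjusted p 8.8e-06). The RNA sensor RIG-I (Ddx58), the related regulator LGP2 (Dhx58) and the kinase PKR (Eif2ak2), which halts translation, were higher by 0.86, 0.85 and 0.46.

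Among the 3 transcription factors, Irf7 differed most. IRF7 drives the production of interferon-α genes and is itself induced by interferon. Irf7 (chr7:141262706-141266481, minus strand) was at 12.2, 11.3 and 11.6 CPM in WT Ctrl, at 6.81, 6.27 and 6.21 in WT IR, 33.5, 32.1 and 34.3 in cKO Ctrl and 29.6, 30.6 and 29.5 in cKO IR. All groups were separate, and Irf7 was 2.85-fold higher in cKO Ctrl (1.51, SE 0.06, adjusted p 1.6e-13). Stat2 and Irf9 showed smaller differences. Stat2 was at 35.6, 35.5 and 37.2 CPM in WT Ctrl, at 36.4, 37.6 and 36.5 in WT IR, 55.6, 51.6 and 54.8 in cKO Ctrl and 47.7, 52.3 and 51.2 in cKO IR. Irf9 was at 46.9, 47.5 and 45.7 CPM in WT Ctrl, at 45.0, 42.6 and 45.9 in WT IR, 68.6, 69.0 and 69.4 in cKO Ctrl and 70.3, 70.8 and 71.9 in cKO IR. Both genes overlapped between the WT groups and were separate between genotypes, with Ctrl differences of 0.58 (SE 0.05) and 0.56 (SE 0.04).

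The restriction factors were higher in cKO Ctrl in 8 of 8 cases. Rsad2 encodes viperin, which makes a chain-terminating nucleotide, and lies beside Cmpk2 on chromosome 12. Rsad2 was at 11.8, 10.2 and 11.3 CPM in WT Ctrl, at 9.64, 9.63 and 11.7 in WT IR, 27.6, 27.8 and 23.7 in cKO Ctrl and 29.5, 33.1 and 31.1 in cKO IR. Its WT groups overlapped, and its cKO groups were separate and above them, with a difference of 1.24 in Ctrl (SE 0.08, adjusted p 1.3e-09), close in size to that of Cmpk2 (1.23). Mx1, a gene of the MX GTPase family, was at 77.7, 77.8 and 80.0 CPM in WT Ctrl, at 123, 134 and 124 in WT IR, 112, 115 and 110.4 in cKO Ctrl and 144, 148 and 146 in cKO IR. Like Herc6, Mx1 was higher in WT IR than in cKO Ctrl, with no overlap between groups, and its genotype difference was 0.52 in Ctrl (SE 0.04, adjusted p 4.6e-09). Bst2, the tetherin that holds budding virus at the cell surface, was at 31.7, 31.9 and 32.0 CPM in WT Ctrl, at 33.0, 32.8 and 32.4 in WT IR, 41, 39.4 and 42.9 in cKO Ctrl and 57.9, 59.6 and 60.1 in cKO IR. All 4 groups were separate, and the Ctrl difference of 0.37 (SE 0.04, adjusted p 4.4e-06) was among the 3 smallest called ones. Slfn5 (1.16), Mx2 (0.86), Trim30a (0.60) and Samd9l (0.27, adjusted p 0.012) were higher too. Samd9l lost its call without WT Ctrl replicate 2 (0.25), cKO Ctrl replicate 1 (0.25) or cKO Ctrl replicate 2 (0.24).

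The remaining genes followed the same direction. PARP9, DTX3L and PARP14 act in ADP-ribosylation and ubiquitylation, and their genes are neighbors on chromosome 16. Parp14 was at 130.3, 134 and 137 CPM in WT Ctrl, at 126, 132 and 124 in WT IR, 197, 199 and 197 in cKO Ctrl and 175, 176 and 168 in cKO IR. The WT groups overlapped and the cKO groups were above them and apart from each other, with a difference of 0.56 in Ctrl (SE 0.04, adjusted p 4.7e-10). Parp9 (0.45) and Dtx3l (0.31) were higher by less. The PYHIN genes Ifi203, Ifi204 and Ifi209 on chromosome 1, which belong to a family of DNA-binding proteins, and the nuclear genes Sp100 and Phf11d were all higher, by 0.37 to 1.03.

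Rtp4, which encodes a receptor chaperone induced by interferon, had the largest difference of all 41 genes in Ctrl. It was at 4.07, 4.01 and 4.32 CPM in WT Ctrl, at 2.82, 2.42 and 1.71 in WT IR, 16.1, 14.4 and 15.5 in cKO Ctrl and 20.6, 16.2 and 17.7 in cKO IR. All groups were separate, and Rtp4 was 3.71-fold higher in cKO Ctrl (1.89, SE 0.12, adjusted p 4.0e-10). Ifi27l2a, a small membrane protein gene of the ISG12 family, was at 8.65, 9.58 and 9.91 CPM in WT Ctrl, at 6.67, 5.13 and 6.21 in WT IR, 18.7, 19.0 and 18.3 in cKO Ctrl and 26.1, 24.5 and 26.2 in cKO IR. Its groups did not overlap either, with a 1.99-fold difference in Ctrl (0.99, SE 0.08, adjusted p 1.5e-08). Ifi44, Xaf1 and Ifi35 were higher by 1.42, 1.07 and 0.48. Ifi44 was the rarest of the 41 genes, at 0.48 ± 0.23 CPM in WT Ctrl and 1.29 ± 0.04 in cKO Ctrl (SD, n = 3 each).

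Per kilobase of merged exons, the genes spanned a wide range in WT Ctrl, from 0.0785 CPM per kb for Ifi44 to 35.3 for Bst2. After Bst2 came Mx1 (20.8), Ifi27l2a (20.3), Dtx3l (17.8) and Slfn5 (16.3). In cKO IR the order at the top was Bst2 (65.6), Ifi27l2a (55.3), Mx1 (38.5) and Slfn5 (35.4). Isg15 went from 4.90 CPM per kb in WT Ctrl to 18.3 in cKO IR. The genes with the highest levels per kb in WT Ctrl were thus not those with the largest genotype differences, which were Rtp4 (1.94 CPM per kb in WT Ctrl), Oas2 (0.591) and Ifit1 (2.70).

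After irradiation the gap between genotypes was wider for many of the genes. In cKO IR, 40 of 41 genes were higher than in WT IR and 0 lower (0 with unadjusted p under 0.05 and 0 with DESeq2), compared with 23.9% and 23.8% of all genes tested. The median log2 difference was 1.07 with a range of 0.00 to 3.05, compared with a median of -0.00 over all genes. At least a 2-fold difference was reached by 21 of the called genes, compared with 247 genes called higher at that size among all 16090 tested. The 3 cKO IR libraries were above all 3 WT IR libraries for 40 genes, which held for 26% of all genes. Ifi44 had the largest difference (3.05, SE 0.37, adjusted p 8.3e-07). Rtp4 followed (2.97, SE 0.13, adjusted p 3.5e-13), a 7.85-fold difference, and then Isg15 (2.84, SE 0.12), Ifit3 (2.5, SE 0.10) and Ifit1 (2.47, SE 0.10). The smallest called differences were those of Mx1 (0.20, SE 0.04, adjusted p 0.0002), Ifih1 (0.23, SE 0.05) and Dtx3l (0.25, SE 0.03). By role, the median difference was 2.37 for the Ifit genes, 1.44 for the Oas and Oasl genes, 0.85 for the sensors and 0.44 for Parp9, Dtx3l and Parp14. Mx2 (0.51) was no longer called without WT IR replicate 2 (0.38) or without cKO IR replicate 2 (0.44).

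**Figure D3:**
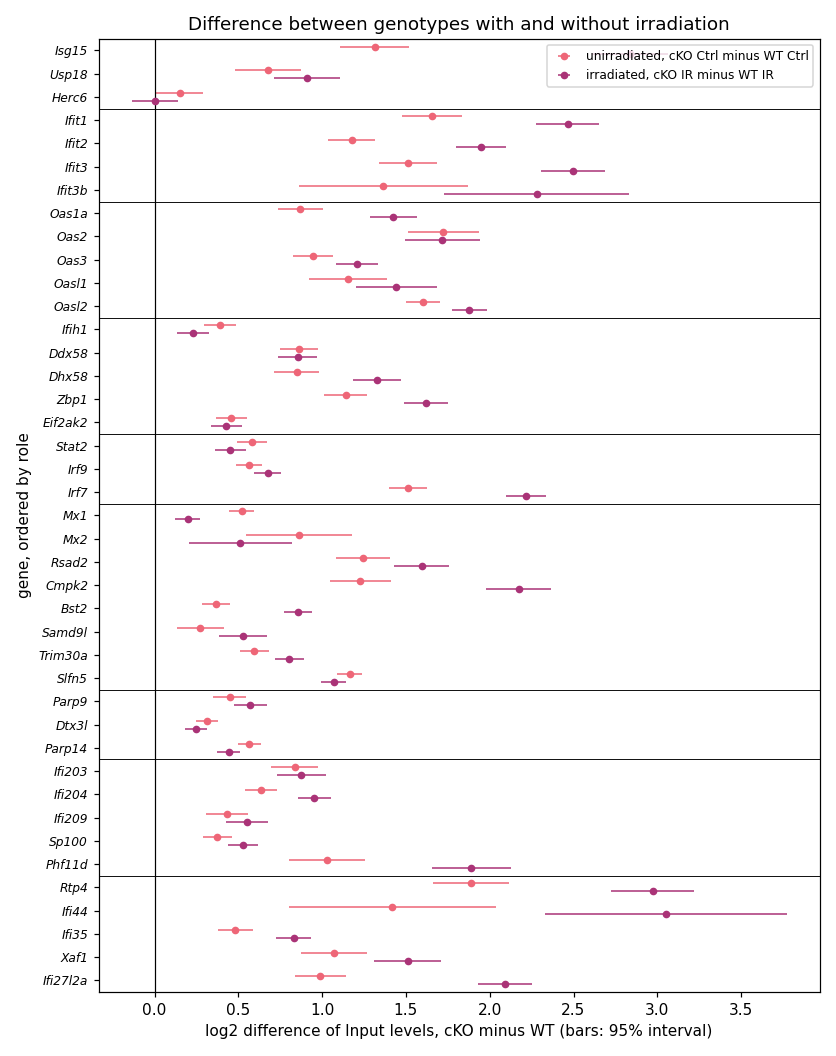
Log2 difference of Input levels between cKO and WT (horizontal axis) for each of the 41 genes (rows, ordered by role), without irradiation and with it, and its 95% interval as a bar. All intervals but that of Herc6 after irradiation lie to the right of 0, and the irradiated values reach from 0.00 for Herc6 to 3.05 for Ifi44.

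In WT cells irradiation was followed by lower levels of most of these genes. In WT IR, 24 of 41 genes were lower than in WT Ctrl and 5 were higher, compared with 17% and 14.7% of all genes tested. The median log2 change was -0.32, whereas the median over all genes was 0.01. All 3 WT IR libraries were below all WT Ctrl libraries for 25 genes (20.7% of all genes) and above them for 4 (19.1%). Ifi44 fell by 1.57 (SE 0.39, adjusted p 0.0039), Isg15 by 0.94 (SE 0.12, adjusted p 5.5e-06), Ifit3 by 0.90 (SE 0.10), Ifit3b by 0.87 (SE 0.30, adjusted p 0.031) and Irf7 by 0.86 (SE 0.06, adjusted p 1.6e-09). All 4 Ifit genes and 4 of 5 Oas and Oasl genes fell, as did 4 of 5 sensors, while none of Parp9, Dtx3l and Parp14 passed the test in either direction. The smallest called falls were those of Eif2ak2 (-0.16), Trim30a (-0.22) and Sp100 (-0.27).

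The 5 genes that rose in WT IR were Mx1 (0.70, SE 0.04, adjusted p 1.8e-11), Mx2 (0.63, SE 0.17, adjusted p 0.0059), Herc6 (0.50, SE 0.07), Usp18 (0.31, SE 0.10, adjusted p 0.026) and Ifi209 (0.29, SE 0.06). Stat2 (0.03) and Irf9 (-0.07) did not pass the test (adjusted p 0.70 and 0.21). The call of Usp18 was lost with any of 4 libraries left out, namely WT Ctrl replicate 1 (0.26), WT Ctrl replicate 3 (0.32), WT IR replicate 1 (0.18) and WT IR replicate 3 (0.26). Calls were also lost for Ifit3b (-0.64 without WT Ctrl replicate 3, and -0.78 or -0.56 with WT IR replicate 1 or 3 left out), for Oas2 (-0.35 without WT Ctrl replicate 3) and for Phf11d (-0.32 without WT IR replicate 3). Eif2ak2 lost its call without WT Ctrl replicate 1 (-0.14), WT Ctrl replicate 2 (-0.15) or WT IR replicate 2 (-0.11).

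In cKO cells irradiation went with changes in both directions. In cKO IR, 13 of 41 genes were higher than in cKO Ctrl and 11 lower. Of all genes tested, 45.6% were called, 21.8% higher and 23.8% lower. The median log2 change was 0.05, compared with 0.01 over all genes. The cKO IR libraries were all above the cKO Ctrl libraries for 16 genes (27.2% of all genes) and all below for 12 (28.6%). The risers included all 3 genes of the ISG15 system, namely Isg15 (0.59, SE 0.10, adjusted p 4.8e-05), Usp18 (0.54, SE 0.10, adjusted p 0.00011) and Herc6 (0.35, SE 0.07), together with Bst2 (0.53, SE 0.04, adjusted p 4.3e-09) and Ifi27l2a (0.46, SE 0.07). The 11 genes that fell were Oas2 (-0.43, SE 0.10), Ifi203 (-0.39), Ddx58 (-0.37), Oas3 (-0.34), Oasl2 (-0.26), Samd9l (-0.23), Parp14 (-0.19), Eif2ak2 (-0.19), Irf7 (-0.16), Ifih1 (-0.12) and Sp100 (-0.12). Of the Ifit genes, Ifit1 rose by 0.27 (SE 0.08, adjusted p 0.011), and Ifit2, Ifit3 and Ifit3b had changes of 0.00, 0.08 and 0.05 that did not pass the test.

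Calls of several small changes in cKO were lost when a single library was left out. Without cKO IR replicate 3 the number of lower genes was 7 instead of 11, and Irf7 (-0.15), Ifih1 (-0.12), Samd9l (-0.19), Sp100 (-0.08) and the rise of Zbp1 (0.11) were no longer called. Ifih1, Zbp1 and Sp100 also lost their calls without any 1 of cKO Ctrl replicates 1, 2 and 3 or cKO IR replicate 2 (-0.14 to -0.10 for Ifih1, 0.14 to 0.18 for Zbp1 and -0.13 to -0.12 for Sp100). The same held for Irf7 without cKO Ctrl replicate 1 (-0.15), cKO Ctrl replicate 3 (-0.14) or cKO IR replicate 1 (-0.15), for Samd9l without cKO Ctrl replicate 2 (-0.20), for Rsad2 (0.17 without cKO Ctrl replicate 3, 0.20 without cKO IR replicate 2), for Xaf1 (0.18 without cKO Ctrl replicate 1, 0.23 without cKO Ctrl replicate 3, 0.23 without cKO IR replicate 1 and 0.19 without cKO IR replicate 2) and for Ifit1 (0.25 without cKO IR replicate 1).

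The irradiation effects of the 2 genotypes were compared directly. The interaction, which is the log2 effect of irradiation in cKO minus that in WT, was above 0 with an adjusted p under 0.05 for 21 of 41 genes and below 0 for 1, compared with 15% and 15.2% of all genes tested (30.2% in either direction). Its median over the 41 genes was 0.28, and over all genes -0.00. Ifi44 (1.63, SE 0.49, adjusted p 0.015), Isg15 (1.52, SE 0.16, adjusted p 5.4e-07), Ifi27l2a (1.10, SE 0.11), Rtp4 (1.08, SE 0.17) and Ifit3 (0.98, SE 0.13) had the largest values. Isg15, Ifi27l2a, Phf11d, Ifit1 and Zbp1 fell in WT and rose in cKO, the last 2 with the loss of calls in cKO given above. Irf7 fell in both genotypes, by 0.86 in WT and by 0.16 in cKO (interaction 0.70, SE 0.08, adjusted p 2.7e-06). Mx1 was the gene with a value below 0 (-0.32, SE 0.05, adjusted p 0.0001), since it rose more in WT than in cKO. For 19 genes the interaction did not pass the test, among them Oas2 (-0.01, 95% interval -0.33 to 0.31), Stat2 (-0.13, -0.26 to 0.00) and Irf9 (0.11, 0.00 to 0.22). Oas3 (0.27) lost its call without WT Ctrl replicate 2 (0.22), WT IR replicate 3 (0.20), cKO Ctrl replicates 2 or 3 (0.26, 0.25) or cKO IR replicates 2 or 3 (0.27, 0.26). Rsad2 (0.35) lost it without WT Ctrl replicates 1 or 3 (0.31, 0.34), WT IR replicate 2 (0.30), cKO Ctrl replicate 3 (0.28) or cKO IR replicates 2 or 3 (0.31, 0.35). Ifi44 lost it without WT Ctrl replicate 3 (1.24) or cKO IR replicate 2 (1.37), and Xaf1 (0.44) without WT Ctrl replicate 3 (0.35), cKO Ctrl replicate 1 (0.38) or cKO IR replicate 2 (0.39).

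**Figure D4:**
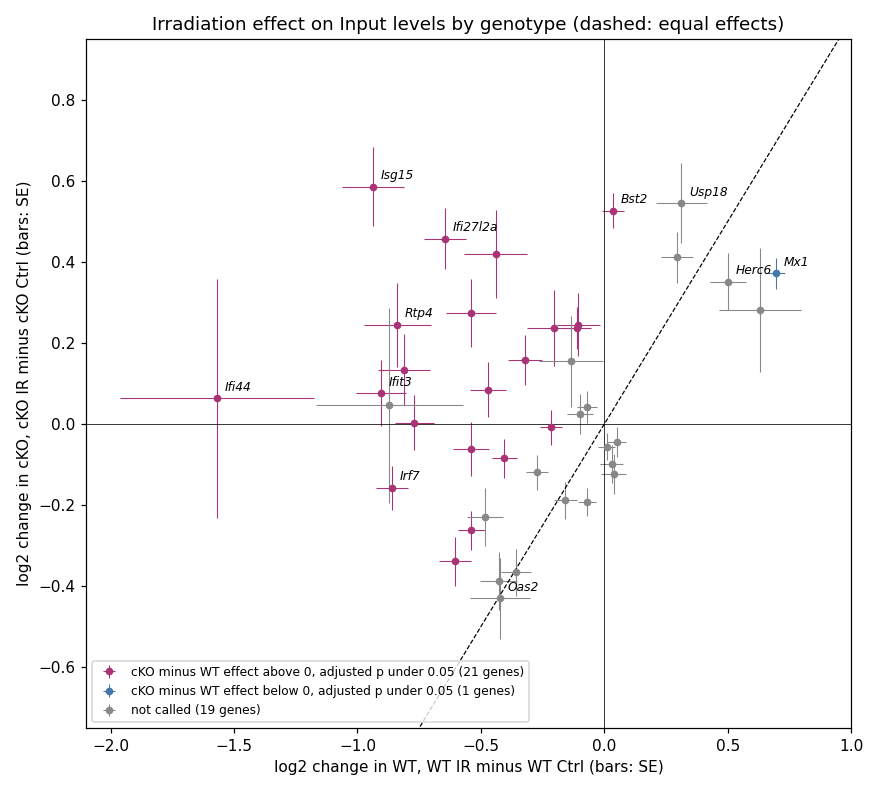
Log2 change after irradiation in WT (horizontal axis) and in cKO (vertical axis) for the 41 genes, with SE bars, the line of equal effects dashed and genes colored by the interaction test. The 21 genes called above 0 lie above the dashed line, most of them at negative values in WT, and Mx1 lies below it.

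Ordered by group means, 18 genes (Isg15, Ifit1, Ifit2, Ifit3, Zbp1, Irf9, Rsad2 and others) had WT IR lowest, then WT Ctrl, cKO Ctrl and cKO IR, and 13 (Oas2, Oas3, Oasl2, Ddx58, Irf7 and others) had the cKO groups in the other order. Usp18, Mx2, Bst2 and Ifi209 had WT Ctrl lowest and cKO IR highest. Ifih1, Stat2, Slfn5 and Dtx3l had WT Ctrl lowest and cKO Ctrl highest, with overlapping WT groups in all 4. Herc6 and Mx1 were the genes whose WT IR mean was above the cKO Ctrl mean.

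Interferon genes themselves were near 0 in the Inputs. Ifnb1 had 0 to 1 counts per WT Ctrl library, 0 to 4 in WT IR, 0 to 8 in cKO Ctrl and 1 to 2 in cKO IR. Ifna5 had 4 counts in 1 cKO IR library and 0 elsewhere, Ifnk had 2 counts in 1 WT Ctrl library, Ifne 1 count in 1 WT IR library, Ifnz 1 count in 1 WT IR and in 1 cKO IR library, and Ifng 1 count in 1 cKO Ctrl library. The other 15 interferon genes on the list had 0 counts in the 12 Inputs. By counting error alone, a 0 in a single library allows up to 3 counts, and 0 in all 12 Inputs allows fewer per library. Reads of the near-identical Ifna copies may have been lost in counting. In the IP libraries Ifnb1, Ifna2, Ifna4, Ifnab, Ifnk, Ifnz and Ifnl2 had at most 6 counts in any library, and the other interferon genes had 0.

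Of the 65 listed pathway genes that were not among the 41, 43 passed the count filter. In cKO Ctrl compared with WT Ctrl, 20 of these were higher and 3 lower (8.05% and 7.61% of all genes tested), with a median of 0.09. In cKO IR compared with WT IR, 16 were higher and 15 lower (23.9% and 23.8% of all genes tested), with a median of 0.04. Ifnar1, a receptor subunit, was at 245, 247 and 259 CPM in WT Ctrl and 281, 277 and 269 in cKO Ctrl, without overlap (0.14, SE 0.03, adjusted p 0.0048). After irradiation it fell in both genotypes, by 0.21 in WT and by 0.31 in cKO, and the genotypes did not pass the test (0.04, adjusted p 0.30). Ifnar2, the other subunit, differed by 0.06 in Ctrl (adjusted p 0.35) and by 0.10 in IR (adjusted p 0.037). Irf1, an early interferon-responsive factor, differed by 0.04 (adjusted p 0.67) and 0.11 (adjusted p 0.054). Socs1, which inhibits JAK kinases, rose after irradiation by 0.58 in WT and by 0.74 in cKO, and differed by 0.26 between cKO IR and WT IR, with cKO higher (SE 0.08, adjusted p 0.017).

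Markers of other cells also differed between the Inputs. Summed over the 6 neutrophil markers, the level was 1549 to 1641 CPM in WT Ctrl, 319 to 360 in WT IR, 671 to 687 in cKO Ctrl and 298 to 315 in cKO IR. Most of this sum was S100a9 and S100a8 (WT Ctrl means of 1034 and 408 CPM, cKO Ctrl means of 378 and 153 CPM). Ly6g, Cxcr2 and Retnlg were also lower in cKO Ctrl than in WT Ctrl, whereas Csf3r was higher (129 and 117 CPM). The 6 monocyte markers summed to 1120 to 1163, 529 to 560, 1090 to 1104 and 842 to 864 CPM in the same order of groups. Within this sum Chil3 was lower in cKO Ctrl than in WT Ctrl (group means 335 and 537 CPM), as was Plac8. Ccr2 (198 and 149 CPM), Hp (392 and 310 CPM) and Ly6c2 (103 and 88.4 CPM) were higher. Vcan was nearly equal (59.05 and 59.01 CPM). In WT IR Vcan was higher than in WT Ctrl (79.3 CPM), whereas the other monocyte markers were lower. The 6 macrophage markers summed to 3850 to 3968, 3550 to 3964, 4057 to 4175 and 4064 to 4190 CPM in the same order of groups. Apoe made up most of the macrophage sum (group means 2415, 2483, 2165 and 2375 CPM), whereas C1qa had means of 67.6, 49.8, 112 and 88.7 CPM. Like C1qa, the markers Adgre1 (802 and 614 CPM), C1qb (504 and 393), C1qc (271 and 210) and Mrc1 (249 and 212) were higher in cKO Ctrl than in WT Ctrl. Only Apoe was lower there. In cKO IR compared with WT IR, Adgre1, C1qa, C1qb and C1qc were higher, and Mrc1 was lower (181 and 229 CPM), as was Apoe. The 6 markers of conventional dendritic cells summed to 405 to 415, 620.1 to 639, 461 to 467 and 703 to 737 CPM. Most of that sum was Ccr7 (means of 365, 573, 418 and 646 CPM), and 3 of the 6 markers were under 1 CPM in all groups, with Cd209a at 9 to 11 counts per WT Ctrl library and 0 in WT IR. For plasmacytoid dendritic cells, which release much interferon-α, 5 of 6 markers were under 1 CPM in all 4 groups, and the sum was 24.3 to 33.7 CPM. Endothelial markers summed to 114 to 186 CPM, of which Vwf had 114 to 185 CPM in group means, and epithelial tumor markers to 5.57 to 8.05 CPM. Mitochondrial genes took 4.61 to 4.84% of Input counts in WT Ctrl, 6.13 to 7.25% in WT IR, 5.34 to 5.51% in cKO Ctrl and 3.39 to 3.75% in cKO IR. The part of these differences in the levels of the 41 genes was not tested.

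The m6A IP libraries gave another picture in the unirradiated cells. In cKO Ctrl compared with WT Ctrl IP libraries, 20 of 41 genes were lower and 3 higher, compared with 17.1% and 16.2% of all genes tested, and the median log2 difference was -0.21, with 0.00 over all genes. The cKO libraries were all below the WT libraries for 20 genes (21.6% of all genes) and all above for 3 (21.2%). With only the 6 unirradiated IP libraries fitted, 19 genes were lower and 3 higher. Isg15 was at 12, 11.3 and 11.3 CPM in WT Ctrl IP and 9.05, 8.16 and 9.84 in cKO Ctrl IP, without overlap (-0.35, SE 0.08, adjusted p 0.00071). Ifit1 was at 13.2, 13.3 and 11.8 CPM and at 8.43, 7.84 and 8.23 CPM, also without overlap. Oasl2, in contrast, was at 23.7, 21.6 and 22.1 CPM and at 24.2, 21.6 and 22.4 CPM, with overlapping groups (0.02, adjusted p 0.85). Among called genes the largest differences were those of Ifit3 (-1.16, SE 0.14, adjusted p 4.9e-08), Ifit3b (-1.04, SE 0.37, adjusted p 0.029), Rsad2 (-0.92, SE 0.14), Mx2 (-0.82, SE 0.18) and Usp18 (-0.67, SE 0.10), and the smallest those of Irf9 (-0.15), Parp14 (-0.17) and Parp9 (-0.20). Oas2 (0.64, SE 0.18, adjusted p 0.0059), Oas1a (0.21) and Ifi203 (0.20) were higher in cKO. Calls were lost for Oas2 (0.50) without WT Ctrl IP replicate 1, for Irf9 (-0.10) without cKO Ctrl IP replicate 1 and for Ifit3b without WT Ctrl IP replicate 1 (-0.89), WT Ctrl IP replicate 2 (-1.03) or cKO Ctrl IP replicate 2 (-0.65).

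Of the 40 genes called higher in the cKO Ctrl Inputs, 20 (50%) were called lower in the cKO Ctrl IP libraries, 3 (7.5%) higher and 17 (42.5%) neither. Among all 1284 genes called higher in the cKO Ctrl Inputs and tested in both, 30.4% were lower, 29.0% higher and 40.6% neither in the IP libraries.

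IP over Input, fitted over all 24 libraries as the log2 ratio relative to all genes, is the measure closest to the m6A enrichment of a transcript. In WT Ctrl, 18 of 41 genes were above 0 and 18 below 0 (38.1% and 37.5% of all genes tested), with a median of -0.00. Samd9l (1.91, SE 0.06), Zbp1 (1.72, SE 0.06), Isg15 (1.42) and Xaf1 (1.32) were above 0, and Oas3 (-2.05, SE 0.08), Slfn5 (-1.71, SE 0.04), Irf7 (-1.61, SE 0.10) and Rsad2 (-1.58) below. The other genes below 0 were Herc6, Mx1, Ifi44, Ifi204, Oas2, Usp18, Oasl1, Oas1a, Mx2, Dtx3l, Bst2, Ifih1, Parp14 and Stat2, with values from -1.56 to -0.11. In cKO Ctrl, 35 genes were below 0 and 5 above it, compared with 36.0% and 37.8% of all genes (73.7% in either direction), and the median was -1.02. Rsad2 (-3.75, SE 0.12), Ifi44 (-3.56), Irf7 (-3.15), Oas3 (-3.14) and Slfn5 (-2.93) were lowest, and Samd9l (1.55), Eif2ak2 (0.69), Ifi203 (0.53), Zbp1 (0.36) and Parp9 (0.31) were above 0.

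The ratio was lower in cKO Ctrl than in WT Ctrl for 40 of 41 genes and higher for 0 (0 with unadjusted p under 0.05 and 0 with DESeq2), compared with 12.5% and 10.1% of all genes tested (22.6% in either direction). With only the 12 unirradiated libraries fitted, 40 were lower and 0 higher. The median difference was -1.10, with -0.00 over all genes, and all 41 values were below 0. Ifit3 (-2.68, SE 0.17, adjusted p 4.2e-14), Ifit3b (-2.42, SE 0.46), Ifi44 (-2.37, SE 0.67, adjusted p 0.0086), Ifit1 (-2.31, SE 0.12) and Rsad2 (-2.17, SE 0.16) had the largest differences, and Samd9l (-0.36), Dtx3l (-0.36) and Ifih1 (-0.41) the smallest called ones. Herc6 (-0.27, SE 0.14, adjusted p 0.20) was not called. The Input level is the denominator of the ratio, so this comparison and that of the Inputs are not independent. Over the 14953 genes tested in both, the unirradiated genotype differences in Input and in IP were nearly uncorrelated (Pearson 0.011, Spearman 0.031). Genes higher in the cKO Ctrl Inputs are therefore likely to have a lower ratio, and no change in m6A is drawn from it. Whether paired Input and IP libraries were made from the same RNA was not given in the sources used here.

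**Figure D5:**
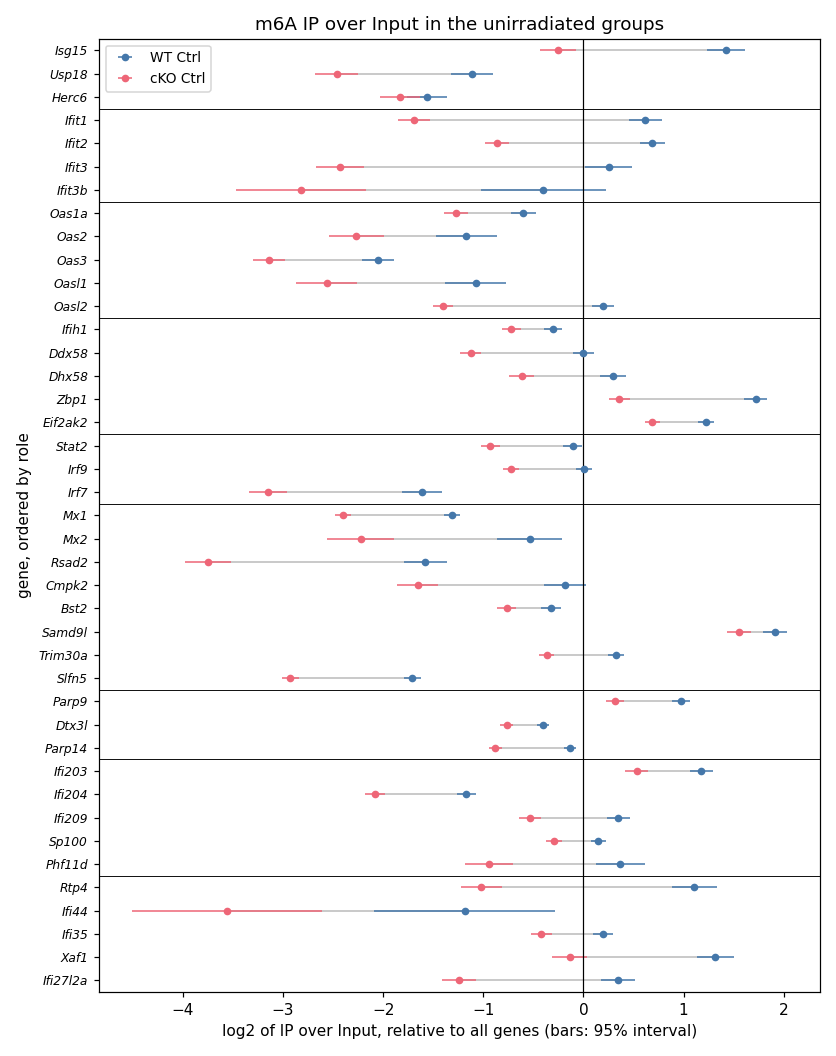
Log2 ratio of m6A IP over Input, relative to all genes, in WT Ctrl and cKO Ctrl (points joined by a line) for the 41 genes, with 95% intervals. The cKO Ctrl value lies to the left of the WT Ctrl value for all 41 genes, with a median difference of -1.10.

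In the irradiated IP libraries, compared by label, 27 of 41 genes were lower and 3 higher in those labelled cKO IR than in those labelled WT IR (25.7% and 17.7% of all genes tested), with a median of -0.24. Oas3 was at 11.8, 13.0 and 11.9 CPM in those labelled WT IR and at 4.26, 4.87 and 5.18 CPM in those labelled cKO IR, without overlap (-1.36, SE 0.10). The largest difference was that of the rare gene Ifi44 (-1.82), with means of 0.48 CPM in those labelled WT IR and 0.14 CPM in those labelled cKO IR. Oas2 (-1.32), Irf7 (-1.01) and Oasl2 (-0.84) were also lower, and Mx1 (0.36), Parp9 (0.23) and Samd9l (0.15) were higher. Since the Lyz2 level of these 6 libraries goes against their labels, no direction by genotype is drawn from them.

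Peaks called by the authors in the IP libraries gave the position of m6A signal. A gene was counted as marked when a peak present in all 3 libraries of a group overlapped one of its exons on its strand. Of 41 genes, 18 (43.9%) were marked in at least 1 group, compared with 34.6% of the genes tested. In WT Ctrl 12 genes were marked (29.3%, and 29.3% of all genes), and in cKO Ctrl 4 (9.76%, and 27.3% of all genes). Of the groups with irradiated IP libraries, 18 genes (43.9%, all genes 24.8%) were marked in the one labelled WT IR and 4 (9.76%, all genes 22.0%) in the one labelled cKO IR. Without the irradiated libraries 12 genes were marked. The peaks' fold values are over a control library that the sources used here do not name, and a gene's Input level may enter them.

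The marked genes carried 28 peaks in WT Ctrl, 8 in cKO Ctrl and, by label, 51 in WT IR and 7 in cKO IR. In WT Ctrl 20 of the 28 summits (71.4%) lay in coding sequence, 5 in a 3′ UTR and 3 in introns or outside exons. Zbp1 had 5 such peaks in WT Ctrl, and the highest, at chr2:173215779-173215990 in coding sequence, had a fold of 11.7 to 12.3 over the 3 libraries. In cKO Ctrl Zbp1 had 0 peaks shared by all 3 libraries, and 1 library had 2 peaks with a fold of at most 2.71. Isg15 had 1 peak in each WT Ctrl library (fold 3.14 to 7.10, chr4:156199667-156200147) and Rtp4 1 (1.89 to 4.59, chr16:23612802-23613511), and neither gene had a peak in any cKO Ctrl library. Ifi203 had 7 peaks in WT Ctrl and 4 in cKO Ctrl, Parp9 5 and 1, Eif2ak2 3 and 1, and Samd9l 1 and 2. Ifit3, Oas3, Irf7, Stat2, Mx1, Rsad2 and 17 other genes were marked in no group.

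The m6A methyltransferase prefers adenosines in the letters GGAC, most of all GGACT. In windows of 101 bases around the summit, read on the strand of the transcript, GGAC was present in 50% of the 28 peaks of these genes in WT Ctrl, compared with 35.1% of all 12182 peaks of that group, and GGACT, which contains it, in 17.9% compared with 11.5%. In cKO Ctrl the shares for the 8 peaks were 25% and 12.5%, compared with 35.1% and 11.4% of all peaks. The windows below are from peaks of WT Ctrl, written 5′ to 3′ on the transcript strand, with GGAC and the next base in capitals. They show the site nearest to the summit in 1 peak of each of 6 genes named above.
Zbp1: aatgaagctgtgGGACCataggctgaccc
Rtp4: ccacatgtacccGGACActttgaaatcgc
Xaf1: ccttgcatttatGGACTctggaaatcgaa
Parp9: ccctgtacttgtGGACTtgcacacaggat
Eif2ak2: ctggatgaggaaGGACTctggcttttggc
Ifi203: gattcagctggcGGACTggattgaggaca
The Zbp1 letters lie in the 3′ UTR at chr2:173207193-173207221 (minus strand), where the summit is 14 bases from the nearest stop codon. Those of Rtp4 (chr16:23612938-23612966, plus strand), Xaf1 (chr11:72308675-72308703, plus strand), Parp9 (chr16:35972093-35972121, plus strand) and Ifi203 (chr1:173937844-173937872, minus strand) are at summits in coding sequence. The Eif2ak2 letters (chr17:78854812-78854840, minus strand) are in the 3′ UTR, in a peak with a fold of 7.35 to 9.07 in WT Ctrl and no counterpart shared by all libraries of cKO Ctrl. The adenosine of the motif lay from 2 bases (Zbp1) to 35 bases (Ifi203) from the summit. A match of letters shows a possible site and not that the base was modified.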

How the data were processed

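CD11b+ myeloid cells of MC38 tumors were profiled by MeRIP-seq, 3 Input and 3 m6A IP libraries per genotype and treatment, grouped by their labels. The authors trimmed reads (Trimmomatic 0.39, per the labels), aligned them to mm10 with strand-aware HISAT and GENCODE annotation, and counted them with HTSeq. The values deposited for each gene are raw counts. Peaks were called by the authors per library and strand with MACS2, and the deposited lists give the fold enrichment (a ratio), −log10 p and −log10 q, and a score from the caller. The latter 3 were used only as the authors' own filter.

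Counts were tested with edgeR 4.0.16 in R 4.3.3 (quasi-likelihood F test, TMM, at least 10 counts in at least 3 libraries, Benjamini-Hochberg adjusted p under 0.05 over all genes of a fit), in 1 fit of the 12 Inputs, 1 of the 12 IP libraries and 1 of all 24. The SE is the log2 difference over the root of F, and 95% intervals are 1.96 SE wide to each side. CPM used the TMM-scaled totals of the Input or the IP fit, so Input and IP levels are on separate scales. Marker sums used unscaled totals. Symbols, exons and positions came from GENCODE on GRCm38, to which 54409 of 54446 identifiers matched. Count lines that name no gene stayed out. In the Inputs, reads outside genes were 4.10 to 6.80% of the gene, ambiguous and outside reads together. On simulated counts for the comparison of cKO IR with WT IR Inputs (16090 genes), 99% of genes changed by 1 and 92% of those changed by 0.5 (log2) were recovered. Changes were placed only in genes with a mean of at least 50 counts, and every simulated library had the same spread. The larger spread of the WT IR Inputs was not simulated, so these shares do not cover it or rarer genes. Replicates of every group differed by more than sampling noise, and those of the WT IR Inputs differed most. Their squared difference over counting variance was 11.3 to 46.2 per gene, compared with at most 9.61 in the other groups.

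The 41 genes and all lists, including the genes whose values are given in every library, were chosen with earlier results of these data known. In each comparison between groups, the 5 genes with the largest and the 3 with the smallest called difference, and those called in the rarer direction, were named. The comparison of the irradiated IP libraries by label was an exception, with only some of these named. Alternatives were DESeq2 1.42.0, RLE scaling, other count filters, fits of only the libraries compared, the replicate number as a block, leaving out each library, and other peak and motif rules. The values of 1 pathway gene named by the rule are not reported here.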

Additional observations from a re-analysis of the deposited data

Results flagged for a closer look

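Results where the effect of irradiation on the Input level differed between cKO and WT, by the interaction test in edgeR (adjusted p under 0.05), are listed with the effect in cKO minus that in WT on the log2 scale. Among the ISG15, Ifit and Oas genes the values were 1.52 for Isg15, 0.81 for Ifit1, 0.77 for Ifit2, 0.98 for Ifit3, 0.55 for Oas1a, 0.27 for Oas3 and 0.28 for Oasl2. The sensors Dhx58 and Zbp1 both had 0.48, and the transcription factor Irf7 had 0.70. Among the restriction factors the value was 0.35 for Rsad2, 0.94 for Cmpk2, 0.49 for Bst2, 0.21 for Trim30a and -0.32 for Mx1, the sole one below 0. Ifi204 had 0.32, Phf11d 0.86, Rtp4 1.08, Ifi44 1.63, Ifi35 0.35, Xaf1 0.44 and Ifi27l2a 1.10. Of all genes tested, 15% were called above 0 and 15.2% below 0 by the same test.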

How the results depend on the processing

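The counts of genes called in the 2 comparisons between genotypes (40 and 40 higher) were 39 to 40 with any 1 library left out. With 1 library left out, the counts in WT IR against WT Ctrl were 4 to 5 higher and 22 to 25 lower, in cKO IR against cKO Ctrl 10 to 12 higher and 7 to 10 lower, and for the interaction 17 to 23 above and 1 to 4 below 0. With only the 6 libraries of the comparison fitted, WT IR against WT Ctrl had 4 higher and 20 lower (5 and 24 in the main fit). Usp18, Ifit3b, Oas2, Eif2ak2 and Phf11d lost their calls in that fit. DESeq2 and a filter of at least 50 counts gave 2 genes instead of 1 below 0 in the interaction, since Parp14 was then called. A peak threshold of at least 4-fold left 9 instead of 18 marked genes, and 1 mismatch in the promoter motif gave 28 instead of 15 genes. Fewer or more features pass by construction there.

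Values that changed sign under an alternative were near 0 and not called. Herc6 in cKO IR against WT IR was at -0.010 with DESeq2, -0.010 with RLE scaling and -0.019 with at least 50 counts. With at least 50 counts Ifit2 in cKO IR against cKO Ctrl was at -0.001, and Ifih1 and Irf7 in the unirradiated IP comparison at 0.013 and 0.011. Oas2 in the interaction was at 0.001 without a count filter. With 1 library left out, Ifih1 in WT IR against WT Ctrl ranged from -0.009 to 0.073 and Herc6 in cKO IR against WT IR from -0.057 to 0.04. In cKO IR against cKO Ctrl the ranges were -0.015 to 0.014 for Ifit2, -0.093 to 0.15 for Ifit3b, -0.023 to 0.018 for Trim30a and -0.195 to 0.216 for Ifi44. In the interaction they were -0.076 to 0.074 for Oas2, -0.062 to 0.07 for Ddx58, -0.078 to 0.002 for Eif2ak2 and -0.027 to 0.119 for Ifi203. In the unirradiated IP comparison they were -0.206 to 0.036 for Herc6, -0.012 to 0.059 for Oasl2, -0.026 to 0.021 for Ifih1, -0.161 to 0.145 for Irf7, -0.085 to 0.009 for Slfn5 and -0.065 to 0.003 for Dtx3l. The cause was not tested. The call of Rtp4 in that comparison (-0.23) was lost in 10 of 12 alternatives.

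Replicate numbers did not pair the libraries (correlation of same-numbered Inputs -0.35 to 0.27). With the replicate number as a block, 40 genes were higher in each comparison between genotypes, 11 were higher and 10 lower in cKO IR against cKO Ctrl (13 and 11 without the block), and the other counts were equal to those without it. Counting error is largest for Ifi44 and Ifit3b, with lowest Input counts of 9 and 19. It is not negligible for genes such as Isg15 (100), Phf11d (105), Rtp4 (117), Ifit3 (122), Mx2 (125) and Oas2 (126). Having 3 libraries per group also limits the precision.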
